A study of Arabidopsis thaliana with 8 samples.

Results

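Nuclear genes for the photosynthetic apparatus were followed in young inflorescences of Arabidopsis thaliana that differ in FHY3 and AG. The set holds 46 genes, chosen by identifier as the nuclear members of the LHCA, LHCB, PSA, PSB and RBCS families, and all 46 were among the 19853 genes of the deposited table. RNA was sequenced from inflorescences with flowers of stage 8 and younger, from the Landsberg erecta wild type (Ler), the AG mutant ag-10, the FHY3 mutant fhy3-68 and the double mutant ag-10 fhy3-68, with 2 libraries per genotype that the series describes as biological replicates. FHY3 is a DNA-binding protein that evolved from a transposase and is best known for its part in far-red light signalling through phytochrome A, while AG is the MADS-box factor that specifies stamens and carpels. The labels do not describe the lesion of either allele, and nothing is said of plant age, growth light or the hour of harvest.

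Photosystems I and II (PSI and PSII) capture light through antenna proteins that hold chlorophyll, the LHCA proteins around PSI and the LHCB proteins around PSII. The core subunits that are encoded in the nucleus (PSA for PSI and PSB for PSII) stabilise the complexes, dock electron carriers or protect the oxygen-evolving centre, and the RBCS proteins are the small subunits of Rubisco, the enzyme that fixes carbon dioxide. These genes are known to respond to light, to the circadian clock, to sugar and to signals from the chloroplast, and in young flowers they are used mainly by green tissues such as sepals. In bulk tissue, more cells of a green type and more RNA per cell cannot be told apart.

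Levels are given as normalised reads per 1000000. The libraries held 12322061 to 16816619 reads in listed genes, and each member had at least 385 reads in every library. The labelled tissue was checked against floral identity genes, of which 8 of 8 were listed. Their summed level was 1077 to 1211 with fhy3-68 and 1255 to 1360 without, so the sums did not overlap. LFY (6.36 to 10.2) and CAL (4.83 to 8.53) were the lowest. Markers of mature pollen, 8 of 9 of them listed, summed to between 13.7 and 246, with the highest sums in replicate 1 of fhy3-68 (187) and of ag-10 fhy3-68 (246). Guard cell markers, 6 of 6 listed, summed to 45.5 to 48.8 with fhy3-68 and 46.3 to 55.2 without.

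The photosynthesis genes were among the most abundant transcripts of these inflorescences. Together they took 4.36% to 4.92% of the reads in the 4 libraries without fhy3-68 and 5.16% to 5.77% in the 4 libraries with it. RBCS1A was the most abundant of all listed genes in 6 of the 8 libraries and second in the others. Per kilobase of transcript in Ler, RBCS1A (3908 per kb) was followed by LHCB1.3 (2740 per kb), RBCS3B (2036 per kb) and LHCB1.2 (1931 per kb). At the other end stood LHCB1.4 (26.1 per kb), LHCA6 (30.9 per kb) and LHCA5 (101 per kb), so that copies of the same antenna family lay at both ends of the range.

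In inflorescences that carry fhy3-68, 9 antenna genes and the PSI subunit gene PSAD2 rose, and the antenna gene LHCB4.3 fell. Members were tested with limma in a fit over all 19853 genes, and a call means a p under 0.05 after Benjamini-Hochberg adjustment over those genes. In the mean effect of fhy3-68, which compares the 4 libraries with fhy3-68 to the 4 without and averages over both AG backgrounds, 10 members rose, 1 fell and 35 were not called. The called share of 23.9% (11 of 46) stood beside 17.9% of all genes, so in this fit the count lies near the background. Of all genes 10.6% rose and 7.34% fell. The members' median log2 fold change was 0.19 against -0.0098 for all genes, and 41 of the 46 (89.1%) lay above 0, beside 48.5% of all genes.

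The called genes were LHCA2 (AT3G61470), LHCA3 (AT1G61520), LHCA4 (AT3G47470), LHCB1.1 (AT1G29920), LHCB1.3 (AT1G29930), LHCB1.4 (AT2G34430), LHCB1.5 (AT2G34420), LHCB4.1 (AT5G01530), LHCB4.2 (AT3G08940) and PSAD2 (AT1G03130), which rose, and LHCB4.3 (AT2G40100), which fell. All 11 were also called by edgeR and by DESeq2 on the recovered reads. These called 17 and 20 members (37.0% and 43.5% of members, beside 17.6% and 17.1% of all genes). With only genes of a mean value of at least 10, limma called 17 members (37.0%, beside 19.8% of all genes). Without Ler replicate 1, and likewise without Ler replicate 2, the calls were LHCB1.4 and PSAD2 alone (4.35% of members beside 4.68% of all genes in each fit). Without ag-10 replicate 1 or 2, 7 and 5 members were called (15.2% and 10.9%, beside 7.01% and 10.96% of all genes). Without replicate 1 or 2 of the double mutant 5 and 8 were called (10.9% and 17.4%, beside 9.16% and 9.34% of all genes). LHCB1.1, LHCB1.3 and LHCB4.2 lost their call only without a Ler library (adjusted p by limma of at most 0.0671, 0.0677 and 0.0643), whereas LHCA3 kept its call in 7 of 15 alternatives LHCA4 and LHCB4.3 in 9, LHCA2 in 10, and LHCB1.5 and LHCB4.1 in 11. With library totals as the scale 10 members were called (21.7%, beside 20.3% of all genes), 9 higher and 1 lower. LHCA3 was lost (adjusted p = 0.0579 by limma), while the share of all called genes that lay higher went from 59.0% to 45.1%.

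**Figure D1:**
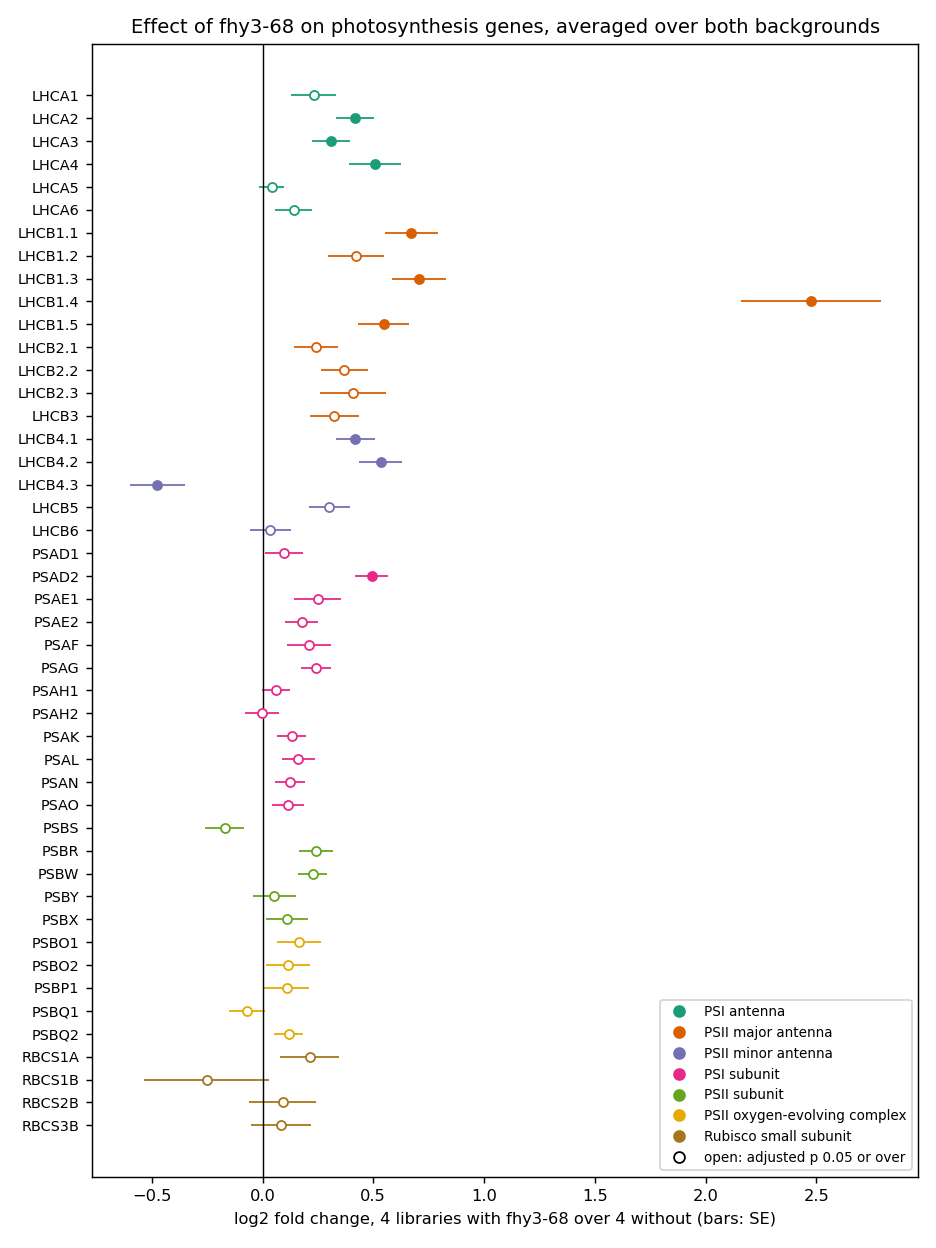
Each point is the log2 fold change of 1 photosynthesis gene between the 4 libraries with fhy3-68 and the 4 without, with its standard error, on the log2(value + 0.5) scale. Filled points passed the test at an adjusted p under 0.05. LHCB1.4 lies apart at 2.48, the other called increases lie between 0.31 and 0.71, and LHCB4.3 lies at -0.47.

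LHCB1.4 showed the largest change. LHCB1 proteins form, with LHCB2 and LHCB3, the trimers of the major PSII antenna, and LHCB1.4 (AT2G34430, chr2:14524607-14525918, forward strand, a gene of 1 exon) is one of 5 LHCB1 copies. Its level was 36.5 and 31.9 (Ler), 40.4 and 81.0 (ag-10), 162 and 417 (fhy3-68), and 241 and 234 (ag-10 fhy3-68). All 4 libraries with fhy3-68 lay above the other 4, the fhy3-68 libraries stood far apart from each other, and ag-10 replicate 2 stood above the other libraries without fhy3-68. The genotype means were 34.2 ± 3.28 for Ler, 60.7 ± 28.7 for ag-10, 289.5 ± 180 for fhy3-68, and 237 ± 4.83 for ag-10 fhy3-68 (SD, n = 2 each). The log2 fold change was 2.48 (SE 0.32, adjusted p = 0.00576 by limma) for the mean effect, 2.91 (SE 0.45, adjusted p = 0.0314 by limma) for fhy3-68 against Ler and 2.78 (SE 0.45, adjusted p = 0.0306 by limma) for the double mutant against Ler. Against ag-10, the double mutant differed by 2.04 (SE 0.45, adjusted p = 0.0728 by limma), which missed the threshold. In fhy3-68 against Ler the call was lost without fhy3-68 replicate 2 (adjusted p = 0.0568 by limma) and without Ler replicate 1 or 2 (0.18 and 0.223). In the double mutant against Ler it was lost without Ler replicate 1 or 2 (0.209 and 0.186) and without replicate 1 or 2 of the double mutant (0.134 and 0.0928).

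The 4 other LHCB1 copies are far more abundant. LHCB1.4 held 0.379% and 0.366% of the reads of the 5 copies in the Ler libraries (Wilson 95% intervals 0.347% to 0.413% and 0.332% to 0.404%). Its share was 1.18% and 2.73% in the fhy3-68 libraries (1.13% to 1.23% and 2.66% to 2.80%), and these intervals cover counting error only. In ag-10 replicate 2 it was 0.927% (0.873% to 0.984%), against 0.409% (0.377% to 0.444%) in ag-10 replicate 1. In the double mutant it was 1.60% and 1.82%, so every library with fhy3-68 held a larger share than every library without it.

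LHCB1.3, the most abundant LHCB1 copy, stood at 3513 and 3227 (Ler), 3666 and 3579.9 (ag-10), 5416 and 6106 (fhy3-68), and 6052 and 5269.7 (ag-10 fhy3-68). LHCB1.1 stood at 1662 and 1499.8 (Ler), 1685 and 1322 (ag-10), 2437 and 2539.9 (fhy3-68), and 2652 and 2177 (ag-10 fhy3-68), and LHCB1.5 at 1912 and 1753 (Ler), 1942 and 1713 (ag-10), 2487 and 3045 (fhy3-68), and 2798 and 2401 (ag-10 fhy3-68). For each of these copies the libraries with fhy3-68 did not overlap with those without. The log2 fold changes of the mean effect were 0.71 (SE 0.12, adjusted p = 0.0115 by limma) for LHCB1.3, 0.67 (SE 0.12, adjusted p = 0.013 by limma) for LHCB1.1 and 0.55 (SE 0.12, adjusted p = 0.0212 by limma) for LHCB1.5. LHCB1.2 had 2742 to 3329 with fhy3-68 and 2038 to 2543 without, and its difference of 0.42 (SE 0.13, adjusted p = 0.056 by limma) missed the threshold.

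The LHCB1 copies lie next to each other in the genome, and how reads were shared among them is a limit. In the RefSeq annotation of TAIR10.1, LHCB1.1, LHCB1.2 and LHCB1.3 lie within chr1:10472280-10479114, and LHCB1.4 lies beside LHCB1.5 within chr2:14522524-14525918 on opposite strands. LHCB1.4 shares 91.4% of aligned coding bases with LHCB1.5 and 86.8% with LHCB1.3, while LHCB1.2 and LHCB1.3 share 96.4%. Of the 50-base stretches of the LHCB1.4 transcript, 13.7% also occur in another gene, LHCB1.5 sharing the most. For LHCB1.1 that share was 20.5%, for LHCB1.2 10.6%, for LHCB1.3 17.0% and for LHCB1.5 17.3%. Reads from such stretches can be dropped or placed on the wrong copy, so the levels of single copies are uncertain to that extent.

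The promoters of LHCB1.4, LHCB1.5 and LHCB1.3 are shown because these copies encode much the same protein yet differ in level and in the size of their change. Each window runs from 250 bases before the annotated transcript start to 50 bases after it, on the gene's own strand, from RefSeq TAIR10.1. Capitals mark every match on either strand to CACGTG (the G-box of light-responsive genes), GATAAG (the I-box), AAAAATCT (a motif bound by the clock factor CCA1) or CACGCGC (the motif bound by FHY3). The windows lie at chr2:14524357-14524656 (forward strand) for LHCB1.4, chr2:14523519-14523818 (reverse strand) for LHCB1.5 and chr1:10477635-10477934 (forward strand) for LHCB1.3.
LHCB1.4: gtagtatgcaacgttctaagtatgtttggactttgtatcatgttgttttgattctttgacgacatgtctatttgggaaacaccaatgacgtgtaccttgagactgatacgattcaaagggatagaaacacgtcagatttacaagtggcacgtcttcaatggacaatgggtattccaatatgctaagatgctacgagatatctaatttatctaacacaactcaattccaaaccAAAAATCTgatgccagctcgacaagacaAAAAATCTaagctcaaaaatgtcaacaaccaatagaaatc
LHCB1.5: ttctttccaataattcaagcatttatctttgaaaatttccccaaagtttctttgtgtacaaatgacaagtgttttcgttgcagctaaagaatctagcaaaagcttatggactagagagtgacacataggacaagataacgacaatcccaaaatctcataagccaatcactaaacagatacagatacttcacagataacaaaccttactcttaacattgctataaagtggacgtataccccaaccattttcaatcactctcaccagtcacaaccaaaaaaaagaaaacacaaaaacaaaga
LHCB1.3: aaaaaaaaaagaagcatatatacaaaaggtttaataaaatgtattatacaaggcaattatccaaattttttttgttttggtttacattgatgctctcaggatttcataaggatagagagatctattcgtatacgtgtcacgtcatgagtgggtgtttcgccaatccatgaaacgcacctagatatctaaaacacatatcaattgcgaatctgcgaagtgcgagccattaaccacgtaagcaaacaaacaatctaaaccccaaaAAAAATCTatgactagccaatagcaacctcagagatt
LHCB1.4 holds the letters AAAAATCT at bases 233 to 240 and 261 to 268 of its window, LHCB1.3 holds them at bases 264 to 271, and LHCB1.5 holds none of the 4 motifs. Only these exact letters were searched, so variant forms of a motif are not marked. The number of matches therefore does not show that the copies differ in sites. The windows of LHCB1.4 and LHCB1.5 share 49.3% of aligned bases, against 91.4% of their coding bases.

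The other genes of the major PSII antenna did not pass the test. LHCB2 and LHCB3 proteins complete the trimers, and phosphorylated LHCB2 moves between the photosystems. LHCB2.1 had 976 to 1152 with fhy3-68 and 809.6 to 983 without, LHCB2.2 974 to 1223 with fhy3-68 and 785 to 928 without, LHCB2.3 318 to 445 with fhy3-68 and 246 to 356 without and LHCB3 1781 to 2112 with fhy3-68 and 1431 to 1697 without. The libraries did not overlap for LHCB2.2 and LHCB3, and overlapped for LHCB2.1 and LHCB2.3. Their log2 fold changes lay between 0.24 (LHCB2.1, adjusted p by limma 0.132) and 0.41 (LHCB2.3, adjusted p by limma 0.0967), with 0.0523 for LHCB2.2 and 0.0801 for LHCB3 for the same p. Summed over its 9 genes, the major antenna stood at 12005 to 13792 without fhy3-68 and at 16871 to 20071 with it, a ratio of means of 1.46.

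**Figure D2:**
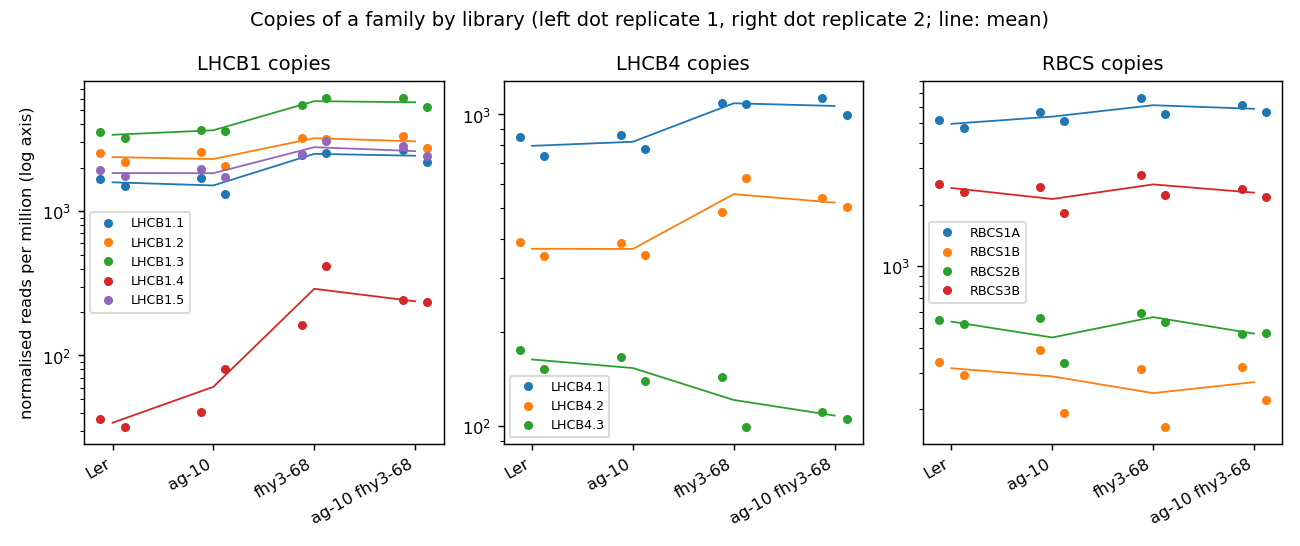
Levels of the copies of LHCB1, LHCB4 and RBCS in each library, in normalised reads per 1000000 on a log axis. Dots are libraries and lines join the means of 2 libraries. LHCB1.4 starts at 34.2 in Ler and reaches 289 in fhy3-68, LHCB4.3 goes down while LHCB4.1 and LHCB4.2 go up, and RBCS1B is the lowest RBCS copy in each library.

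The minor PSII antenna held members that went in opposite directions. LHCB4 (CP29), LHCB5 (CP26) and LHCB6 (CP24) are single proteins that link the trimers to the PSII core. LHCB4.1 stood at 849 and 738 (Ler), 860.2 and 775 (ag-10), 1092 and 1080.3 (fhy3-68), and 1134 and 997 (ag-10 fhy3-68), and LHCB4.2 at 389 and 353 (Ler), 388 and 353 (ag-10), 486 and 625 (fhy3-68), and 539.8 and 504 (ag-10 fhy3-68). Both rose, with no overlap between libraries with and without fhy3-68, by 0.42 (SE 0.088, adjusted p = 0.0205 by limma) and 0.53 (SE 0.10, adjusted p = 0.0131 by limma). LHCB4.3, a divergent copy of CP29, stood at 175 and 152 (Ler), 167 and 140.2 (ag-10), 144 and 99.4 (fhy3-68), and 111 and 105 (ag-10 fhy3-68). It fell, with a log2 fold change of -0.47 (SE 0.12, adjusted p = 0.0403 by limma), although fhy3-68 replicate 1 lay above ag-10 replicate 2. LHCB4.3 shares 66.9% of aligned coding bases with LHCB4.2 and no 50-base stretch with the reference transcript of another gene. Introns and other transcript forms were not searched.

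LHCB5, the most abundant of the minor antenna genes, stood at 1949.8 and 1999 (Ler), 2115 and 1979.9 (ag-10), 2441 and 2564 (fhy3-68), and 2547 and 2363 (ag-10 fhy3-68). Its libraries did not overlap, but the difference of 0.30 (SE 0.091, adjusted p = 0.059 by limma) missed the threshold. LHCB6 had 828 to 954 with fhy3-68 and 800.3 to 949 without, with a log2 fold change of 0.035 (SE 0.093, adjusted p = 0.812 by limma).

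Promoters are shown for the LHCB4 copies that moved in opposite directions, at chr3:2717307-2717606 (forward strand) for LHCB4.2 and chr2:16745378-16745677 (forward strand) for LHCB4.3, and for LHCA4 and PSAD2, the most changed PSI genes, at chr3:17494984-17495283 (reverse strand) and chr1:754213-754512 (reverse strand).
LHCB4.2: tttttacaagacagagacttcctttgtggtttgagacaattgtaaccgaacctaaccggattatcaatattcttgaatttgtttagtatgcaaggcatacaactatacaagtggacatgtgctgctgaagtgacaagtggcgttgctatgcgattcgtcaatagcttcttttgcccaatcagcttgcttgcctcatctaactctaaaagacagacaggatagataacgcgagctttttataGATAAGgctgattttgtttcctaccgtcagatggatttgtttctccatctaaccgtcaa
LHCB4.3: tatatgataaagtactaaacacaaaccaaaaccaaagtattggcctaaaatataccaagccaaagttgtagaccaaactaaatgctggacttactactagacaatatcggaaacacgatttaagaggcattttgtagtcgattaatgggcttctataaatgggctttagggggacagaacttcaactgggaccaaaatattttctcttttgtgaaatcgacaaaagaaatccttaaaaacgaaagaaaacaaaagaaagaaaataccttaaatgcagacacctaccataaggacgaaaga
LHCA4: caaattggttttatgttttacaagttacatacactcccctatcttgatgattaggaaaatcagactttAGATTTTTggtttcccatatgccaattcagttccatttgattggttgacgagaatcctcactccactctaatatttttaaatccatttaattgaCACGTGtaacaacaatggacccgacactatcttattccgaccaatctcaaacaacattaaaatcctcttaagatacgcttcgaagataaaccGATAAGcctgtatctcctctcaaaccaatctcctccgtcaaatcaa
PSAD2: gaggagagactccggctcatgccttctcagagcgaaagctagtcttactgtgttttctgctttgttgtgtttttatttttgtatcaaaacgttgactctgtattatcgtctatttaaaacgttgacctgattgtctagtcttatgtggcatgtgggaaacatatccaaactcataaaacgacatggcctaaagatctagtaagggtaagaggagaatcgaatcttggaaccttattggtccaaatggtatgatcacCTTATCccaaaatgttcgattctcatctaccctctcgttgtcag
LHCB4.2 holds the letters GATAAG at bases 242 to 247 of its window and LHCB4.3 holds none of the 4 motifs. LHCA4 holds AAAAATCT on the other strand at bases 69 to 76, CACGTG at 163 to 168 and GATAAG at 255 to 260, and PSAD2 holds GATAAG on the other strand at 257 to 262, where base 251 is the annotated start. Over all members, CACGTG was found in 15 of 46 windows (32.6%) against 8.73% of the 19367 windows of listed genes, and GATAAG in 19 (41.3%) against 14.7%. AAAAATCT was found in 6 of 46 against 8.13%, and CACGCGC in 0 of the 46 against 1.72%. CACGCGC and CACGTG share their first 4 letters, so the searches are not fully independent. These are exact letter matches, not binding sites, and variant forms of the motifs were not searched.

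Of the PSI antenna genes, LHCA2, LHCA3 and LHCA4 rose, and LHCA1, LHCA5 and LHCA6 were not called. LHCA1 to LHCA4 form the belt of antenna proteins on one side of PSI, while LHCA5 and LHCA6 are minor forms that link PSI to the NDH complex of cyclic electron flow. LHCA4 stood at 2008 and 1903 (Ler), 2108 and 1974 (ag-10), 2491 and 3249 (fhy3-68), and 2974 and 2694 (ag-10 fhy3-68). LHCA2 stood at 745 and 667 (Ler), 722 and 683 (ag-10), 911 and 982 (fhy3-68), and 1017 and 859.6 (ag-10 fhy3-68), and LHCA3 at 723 and 672 (Ler), 786 and 676 (ag-10), 887 and 923 (fhy3-68), and 921 and 804 (ag-10 fhy3-68). In all of them every library with fhy3-68 lay above every library without it. The log2 fold changes were 0.51 (SE 0.12, adjusted p = 0.0277 by limma) for LHCA4, 0.42 (SE 0.087, adjusted p = 0.02 by limma) for LHCA2 and 0.31 (SE 0.086, adjusted p = 0.0478 by limma) for LHCA3.

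LHCA1 also showed no overlap, with 2144 to 2554 with fhy3-68 and 1852 to 2084 without, but differed by 0.23 (SE 0.10, adjusted p = 0.154 by limma), which missed the threshold. LHCA6, the only member with a mean under 50, stood at 35.6 and 36.2 (Ler), 33.1 and 29.5 (ag-10), 39.1 and 37.1 (fhy3-68), and 39.7 and 32.6 (ag-10 fhy3-68), with overlapping libraries and a log2 fold change of 0.14 (SE 0.083, adjusted p = 0.263 by limma). LHCA5 differed by 0.042 (SE 0.057, adjusted p = 0.629 by limma). LHCA2 shares 8.76% of its 50-base stretches with AT5G28450, which was not analysed here.

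Among the 12 PSI core genes, PSAD2 rose and 11 were not called. PSAD and PSAE form the docking site for ferredoxin on the stromal side, and each is encoded by a pair of genes. PSAD2 stood at 205 and 209 (Ler), 219.7 and 190.5 (ag-10), 287 and 318 (fhy3-68), and 293 and 263 (ag-10 fhy3-68). The libraries with fhy3-68 all lay above the others, and the log2 fold change was 0.49 (SE 0.075, adjusted p = 0.00864 by limma) for the mean effect and 0.54 (SE 0.11, adjusted p = 0.0463 by limma) for fhy3-68 against Ler. The call in fhy3-68 against Ler was lost with library totals (adjusted p = 0.0535 by limma), with edgeR (0.0504), in the fit on the 2 genotypes alone (0.0779), without Ler replicate 1 or 2 (0.248 and 0.241), without fhy3-68 replicate 2 (0.108) and without replicate 1 or 2 of the double mutant (0.0671 and 0.0667). The AT1G03140 gene model overlaps PSAD2 on the same strand and stood at 95.9 at most. PSAD1, with 86.3% identical coding bases but no shared 50-base stretch, had 399 to 479 with fhy3-68 and 397 to 464 without, a difference of 0.10 (SE 0.087, adjusted p = 0.456 by limma).

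PSAF, which helps bind plastocyanin and was the most abundant of the PSI core genes, stood at 1171 and 1019 (Ler), 1190.2 and 1002 (ag-10), 1355 and 1219.9 (fhy3-68), and 1307 and 1181 (ag-10 fhy3-68), and its difference of 0.21 (SE 0.10, adjusted p = 0.175 by limma) was not called. PSAG, PSAE2, PSAK and PSAL showed no overlap between libraries with and without fhy3-68, and were not called either, with adjusted p by limma of 0.0519, 0.134, 0.192 and 0.164. The 12 genes had a median of 0.15 and ranged from -0.0021 for PSAH2 to 0.49 for PSAD2. PSAH, PSAL and PSAO form the site where the mobile antenna docks on PSI, and PSAN helps plastocyanin pass electrons. PSAE1 differed by 0.25 (SE 0.11, adjusted p = 0.14 by limma), PSAO by 0.11 (SE 0.071, adjusted p = 0.288 by limma), PSAN by 0.12 (SE 0.068, adjusted p = 0.24 by limma) and PSAH1 by 0.06 (SE 0.063, adjusted p = 0.529 by limma), and in all of them the libraries overlapped.

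PSII subunit genes and those of the oxygen-evolving complex were not called. PSBR, a small subunit that helps hold the oxygen-evolving proteins, stood at 1043 and 1031 (Ler), 1091 and 1045 (ag-10), 1225 and 1299.7 (fhy3-68), and 1275 and 1178 (ag-10 fhy3-68), without overlap, and its difference of 0.24 (SE 0.076, adjusted p = 0.0664 by limma) missed the threshold. PSBW, a small subunit of PSII, showed no overlap either (905 to 982 with fhy3-68 and 778 to 828 without) and differed by 0.23 (SE 0.066, adjusted p = 0.0538 by limma). PSBS, which triggers the harmless release of excess light energy, was at 994 to 1133 with fhy3-68 and 1101 to 1269 without, a difference of -0.17 (SE 0.088, adjusted p = 0.206 by limma). The small subunits PSBX (631 to 809 with fhy3-68 and 613 to 707 without) and PSBY (304 to 332 with fhy3-68 and 255 to 352 without) overlapped between libraries, with differences of 0.11 (SE 0.094, adjusted p = 0.436 by limma) and 0.054 (SE 0.10, adjusted p = 0.727 by limma).

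The PSBO, PSBP and PSBQ proteins shield the manganese cluster that splits water. PSBO1, the most abundant of their genes, stood at 1653 and 1514 (Ler), 1669 and 1439 (ag-10), 1740.1 and 1818 (fhy3-68), and 1847 and 1628 (ag-10 fhy3-68), with overlapping libraries and a difference of 0.17 (SE 0.10, adjusted p = 0.264 by limma). The 5 genes of this group had log2 fold changes between -0.068 (PSBQ1) and 0.17 (PSBO1) with SE up to 0.10, and none showed separated libraries. PSBP1 had 1276 to 1471 with fhy3-68 and 1180.4 to 1422 without, PSBO2 493 to 509 with fhy3-68 and 382 to 523 without, PSBQ1 464 to 503 with fhy3-68 and 451 to 546 without and PSBQ2 540.3 to 598 with fhy3-68 and 513 to 557 without.

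RBCS genes were not called, and their copies differed between replicates. RBCS1A stood at 5159.6 and 4749.9 (Ler), 5648 and 5100.3 (ag-10), 6661 and 5557 (fhy3-68), and 6107 and 5629 (ag-10 fhy3-68), with a log2 fold change of 0.21 (SE 0.13, adjusted p = 0.288 by limma). RBCS1B stood at 339.7 and 296 (Ler), 389 and 191 (ag-10), 317 and 164 (fhy3-68), and 321 and 222 (ag-10 fhy3-68), a difference of -0.25 (SE 0.28, adjusted p = 0.555 by limma). In each genotype RBCS1B was lower in replicate 2 than in replicate 1, by a log2 difference of -1.02 in ag-10, and the replicates of ag-10 lay farther apart than any genotype means. RBCS2B (465 to 593 with fhy3-68 and 337 to 561 without) and RBCS3B (2179 to 2791 with fhy3-68 and 1811 to 2517 without) differed by 0.09 (SE 0.15, adjusted p = 0.698 by limma) and 0.084 (SE 0.14, adjusted p = 0.693 by limma). Of the reads of the 4 RBCS copies, RBCS1B held 3.97% and 3.75% in Ler (Wilson 95% intervals 3.86% to 4.08% and 3.64% to 3.87%) and 3.06% and 1.93% in fhy3-68 (2.97% to 3.14% and 1.85% to 2.01%). Its share was 4.296% and 2.57% in ag-10 and 3.46% and 2.61% in the double mutant, so the libraries with and without fhy3-68 overlapped. RBCS1B, RBCS2B and RBCS3B lie together within chr5:15376988-15385320 and share 94.1% to 97.3% of aligned coding bases, with 13.8% to 21.4% of their 50-base stretches found in another gene, whereas RBCS1A on chromosome 1 shares 1.48%.

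**Figure D3:**
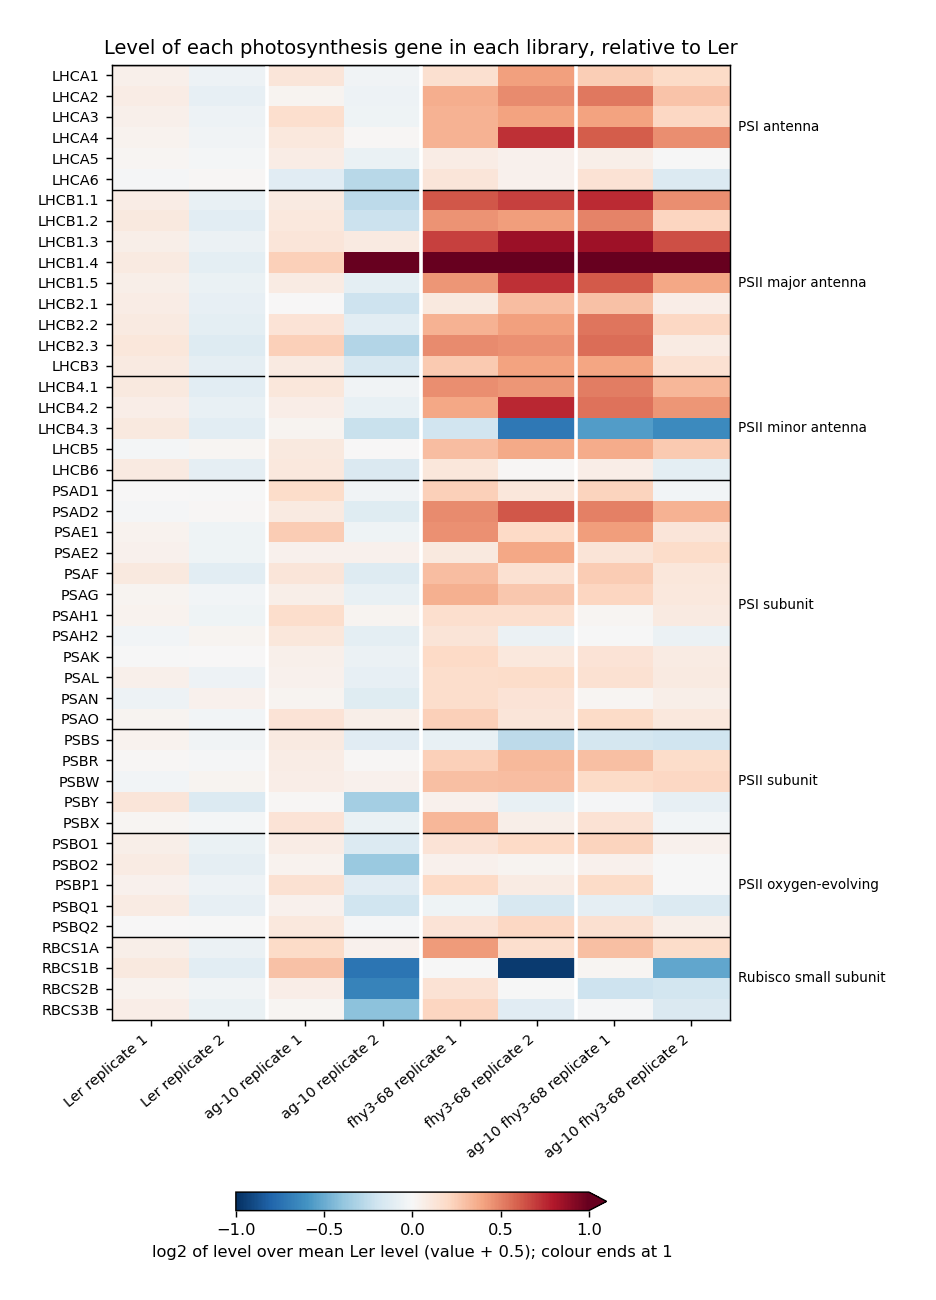
Level of each of the 46 genes in each library relative to its mean in Ler, as log2 of (value + 0.5), with red for higher and blue for lower and the colour ending at 1. Rows are grouped by role. Most antenna rows are red in the 4 libraries with fhy3-68, the rows of LHCB4.3 and PSBS are blue there, and RBCS1B is blue in replicate 2 of each mutant.

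Separation of the libraries was also counted, with no test. In 21 of 46 members (45.7%) every library with fhy3-68 lay above every library without it, against 14.3% of all genes, and in 0 members all lay below, against 12.9% of all genes. By role these were 4 of 6 PSI antenna genes, 7 of 9 of the major and 3 of 5 of the minor PSII antenna, 5 of 12 PSI core genes, 2 of 5 PSII subunits, and 0 of 5 genes of the oxygen-evolving complex and 0 of 4 RBCS genes. The median log2 fold changes were 0.27, 0.42, 0.30, 0.15, 0.11, 0.11 and 0.087 in that order. Differences between these role groups were not tested.

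Taken 1 background at a time, fewer members were called. In fhy3-68 against Ler, 2 members rose (LHCB1.4 and PSAD2) and 0 fell, a share of 4.35% against 3.05% of all genes called (2.26% higher and 0.786% lower). The other 44 were not called. Of the 46, 41 (89.1%) lay above 0, beside 47.9% of all genes, and the median was 0.22. In ag-10 fhy3-68 against ag-10, which shares no library with that comparison, limma called 0 members. Of all genes it called 1.5% (0.992% higher and 0.509% lower). edgeR called 0 members beside 1.04% of all genes, and DESeq2 called 9 (19.6%) beside 5.37%. An unadjusted limma p under 0.05 was found in 11 of 46 members, beside 4193 of the 19853 genes. There 40 of 46 members (87.0%) lay above 0, beside 49.3% of all genes, with a members' median of 0.16. Of the 46, 39 (84.8%) lay above 0 in both backgrounds and 4 (8.70%) below in both, against 38.2% and 41.1% of all genes. The double mutant set against Ler, which shares the Ler libraries with the first comparison, had LHCB1.4 called higher (2.17% of members against 4.33% of all genes, of which 2.48% rose and 1.85% fell) and a median of 0.16.

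No member was called for ag-10 alone, in either AG comparison or in the interaction. In ag-10 against Ler, limma, edgeR and DESeq2 each called 0 of the 46 members (limma called 0.00504% of all genes), and 0 had an unadjusted limma p under 0.05. The members' median log2 fold change was -0.0028, with 21 members (45.7%) above 0, beside 49.1% of all genes. The values ran from -0.30 for RBCS2B to 0.74 for LHCB1.4 (SE 0.45), whose ag-10 libraries stood at 40.4 and 81.0. In the double mutant against fhy3-68, 45 of 46 members lay below 0 by a median of -0.057, beside 10036 of the 19853 genes and a median of -0.0020. In that comparison 0 members were called by any of the 3 tools (limma called 0 of all genes) and 0 had an unadjusted limma p under 0.05. For the interaction, the effect of fhy3-68 in ag-10 minus its effect in Ler, 0 members were called by any of the 3 tools (limma called 0.00504% of all genes) and 0 had an unadjusted limma p under 0.05. The largest interaction was that of LHCB1.4, at -0.87 (SE 0.63, adjusted p = 1 by limma).

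Members also differed between replicates, mostly in 1 direction. In replicate 2, 39 of the 46 members lay below replicate 1 in Ler, 44 in ag-10 and 41 in ag-10 fhy3-68, by medians of -0.10, -0.21 and -0.13 on the log2 scale, while 25 did in fhy3-68. Over all genes these medians lay between -0.0016 and 0.0016. The 2 fhy3-68 libraries differed most in LHCB1.4, by 1.36.

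**Figure D4:**
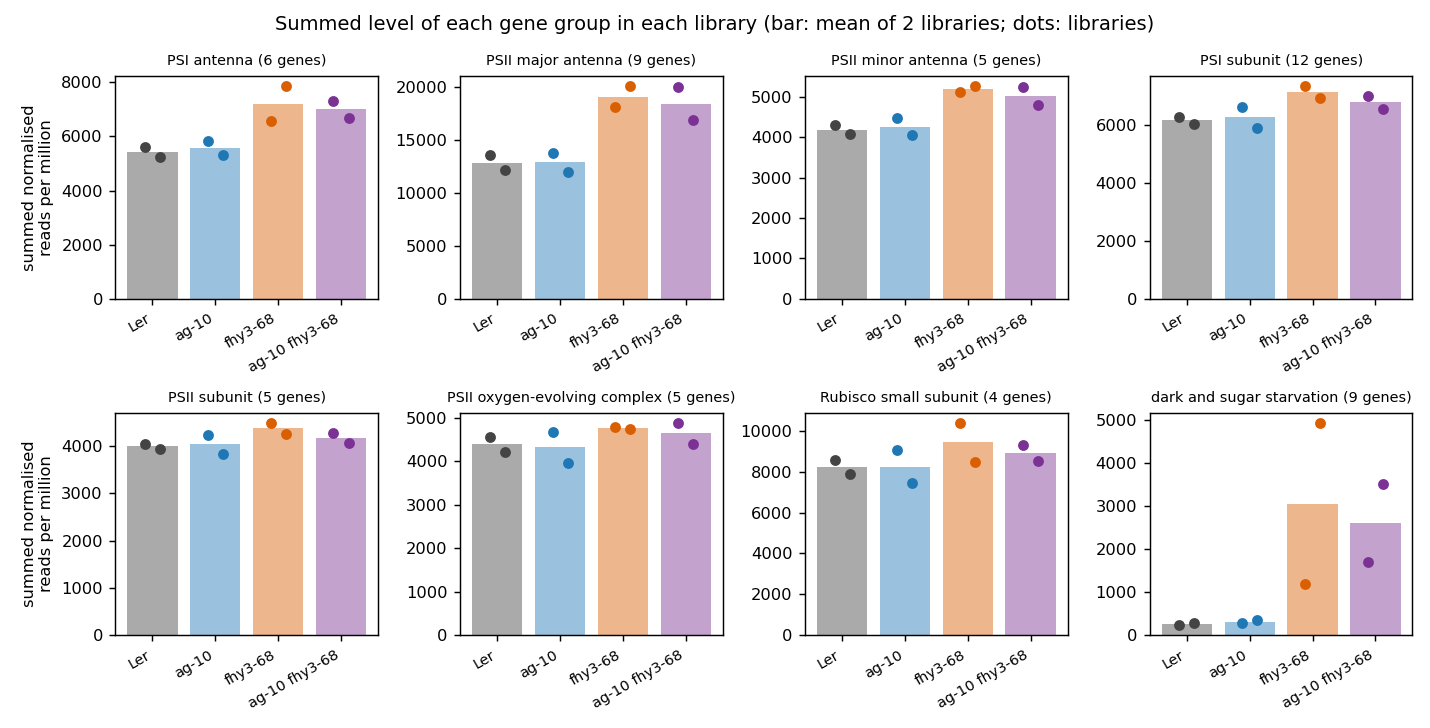
Summed level of each role group and of the genes of darkness and sugar starvation in each library, in normalised reads per 1000000, from 0. Bars are means of 2 libraries and dots are libraries. The antenna groups are higher in all 4 libraries with fhy3-68, RBCS sums overlap, and the starvation genes rise from at most 350 to at least 1195.

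Other genes of photosynthesis were counted in lists drawn up by function, with earlier results of these data known. Of 21 chlorophyll synthesis genes, 6 rose in the mean effect of fhy3-68, 0 fell and 15 were not called, a called share of 28.6% beside 17.9% of all genes, with a median of 0.060. PORA, a light-dependent protochlorophyllide oxidoreductase, rose from 3.19 to 11.7 without fhy3-68 to 38.4 to 78.3 with it, by 3.47 (SE 0.32, adjusted p = 0.00287 by limma). HEMA1, which encodes the first enzyme committed to tetrapyrrole synthesis, rose from 228 to 255 without fhy3-68 to 349.8 to 387 with it, by 0.56 (SE 0.065, adjusted p = 0.00468 by limma). CAO, which makes the chlorophyll b that antenna proteins bind, rose from 105 to 124 without fhy3-68 to 143 to 175 with it, by 0.50 (SE 0.087, adjusted p = 0.0122 by limma). The others that rose were PORB, HEMA2 and CHLM. Apart from PORA, these genes are named after their values were seen, as are those of the lists of antenna assembly, electron transport, Calvin cycle and regulators.

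Of 15 genes for antenna assembly and light stress, 7 rose, 0 fell and 8 were not called, with a median of 0.22. The called share was 46.7% beside 17.9% of all genes. ALB3, the translocase that inserts antenna proteins into the thylakoid, rose from 201 to 212 without fhy3-68 to 252 to 333 with it, by 0.52 (SE 0.091, adjusted p = 0.0122 by limma). The others that rose were CPSRP54, which carries antenna proteins to the thylakoid, the phosphatase gene TAP38, the kinase gene STN8, the violaxanthin de-epoxidase gene NPQ1, PSB27 and OHP2. ELIP1, an early light-induced gene, stood at 134 and 83.9 (Ler), 140.1 and 60.6 (ag-10), 65.0 and 20.5 (fhy3-68), and 66.5 and 31.7 (ag-10 fhy3-68) and was not called (-1.26, SE 0.44, adjusted p = 0.0872 by limma).

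Of 13 genes of electron transport and ATP synthase, 3 rose (PETE1, PETC and AT2G26500), 0 fell and 10 were not called, with a median of 0.11 and a called share of 23.1%, near the 17.9% of all genes. Of 14 Calvin cycle genes, 3 rose (CP12-1, CP12-2 and RPE), 0 fell and 11 were not called, with a median of 0.075 and a called share of 21.4%, again near the background. Among 20 regulators, PIF4, PIF5, CRY1 and SIG1 rose, PHYB fell and 15 were not called, with a median of 0.082 and a called share of 25.0% beside the same 17.9%. PIF5, a bHLH factor that promotes growth in shade, rose from 18.6 to 21.7 without fhy3-68 to 30.7 to 41.3 with it, by 0.74 (SE 0.10, adjusted p = 0.00597 by limma). GLK1 and GLK2, the factors that drive antenna genes in leaves, were not called, with -0.035 (SE 0.19, adjusted p = 0.91 by limma) and 0.32 (SE 0.11, adjusted p = 0.083 by limma). The same holds for HY5 and CCA1, at 0.0053 (SE 0.15, adjusted p = 0.983 by limma) and -0.088 (SE 0.20, adjusted p = 0.778 by limma).

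Genes of darkness and sugar starvation, chosen with earlier results of these data known, were also higher with fhy3-68. Their part in the result was not tested. Of 9 such genes, 7 rose, 0 fell and 2 were not called. The called share was 77.8% beside 17.9% of all genes, which is no test of these genes, given that choice. Their median was 3.53, and their sum was 239 to 350 without fhy3-68. With fhy3-68 it was 1195 and 4917 in the single mutant and 1701 and 3505 in the double mutant. In each genotype this sum was higher in replicate 2 than in replicate 1. The summed major PSII antenna was lower in replicate 2 in Ler, ag-10 and the double mutant, and higher in fhy3-68. The dormancy-linked gene AT2G33830 rose by 5.18 (SE 0.78, adjusted p = 0.00846 by limma), SEN1 by 4.29 (SE 0.69, adjusted p = 0.00963 by limma), ASN1, an asparagine synthetase gene, by 3.76 (SE 0.59, adjusted p = 0.00915 by limma), and DIN10 by 3.70 (SE 0.53, adjusted p = 0.0076 by limma). AT3G15450 (3.53) and DYL1, another gene linked to dormancy, rose too.

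Genes of rapid stress, which respond to touch, wounding and cold, also moved with fhy3-68, and their part was not tested either. These too were chosen with earlier results of these data known. Of 12 such genes, 10 rose, 0 fell and 2 were not called. The called share was 83.3% beside 17.9% of all genes, which is again no test of these genes. Their median was 2.27, and their sum was 283 to 606 without fhy3-68 and 785 to 1648 with it. They included WRKY40 (3.85), TCH4 (3.33), STZ (3.18), WRKY33 (2.93) and TCH3 (2.90). Among markers of other cells, 1 of 8 mature pollen genes rose (PGA4), 0 fell and 7 were not called. All 8 lay above 0 in the mean effect of fhy3-68, with a median of 1.28 and SE of 0.44 to 0.89. Their sums, 56.6 to 246 with fhy3-68 and 13.7 to 76.1 without, overlapped. Of 6 guard cell genes, 1 rose (FAMA) and 1 fell (KAT1). Of 8 floral identity genes, SEP3 rose and SEP1, SEP2 and AP3 fell. The part of these markers in the changes of the photosynthesis genes was not tested.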

How the data were processed

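The deposited values are a normalised signal, which the values show to be whole reads per gene that the authors scaled by library to about 1000000. Column totals ran from 974822 to 997307 without fhy3-68 and from 1004567 to 1037312 with it. In each library 100% of values lay within 0.1 of a whole read after division by the value of 1 read (0.0598 to 0.0793). HTSeq 0.6.1p1, TopHat2 2.0.14, CASAVA 1.8 and a version of edgeR were used, per the submitters' processing notes, which assign them no step. Build, annotation and strandedness: not given in the sources used here. In TAIR10.1, 17 members overlap another gene model, among them LHCA4, LHCB1.3, LHCB1.5, LHCB4.2 and PSAD2, so some reads may belong to a neighbour.

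limma 3.58.1 (R 4.3.3) with an intensity trend was fitted to log2(value + 0.5) of all 19853 genes, with a coefficient per genotype over 8 libraries (4 residual and 3.41 prior degrees of freedom), two-sided, with Benjamini-Hochberg adjustment over all genes. Fold changes understate those of low genes. The fits were also run on simulated counts with 200 changed genes and the same spread setting for every gene. That setting does not copy the replicate differences of these libraries. edgeR 4.0.16 and DESeq2 1.42.0 were run on the recovered whole reads. Other alternatives were library totals, pseudocounts of 0.1 and 1, a minimum mean value of 10, the 2 genotypes compared alone, a replicate block and leaving out each library. Sequences, transcript lengths and names are from RefSeq TAIR10.1, which matched 19811 of the 19853 identifiers. Whether its sequence matches that of Ler at these genes was not checked. Of the 129 list entries, 3 were not analysed here, and 4 whose name the reference does not give are called by its own name.

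Members, lists, contrasts and tests were chosen with earlier results of these data known. Members given with every library's value are those called, the most abundant and the most changed of each role, and those with a mean under 50. Of the other lists, up to 12 called genes with the largest change were to be named. The labels do not say how the replicates were grown, so p-values measure the spread between these samples.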

Additional observations from a re-analysis of the deposited data

How the results depend on the processing

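The members' median log2 fold change ranged over the alternatives from 0.15 to 0.24 in the mean effect of fhy3-68, from 0.16 to 0.28 in fhy3-68 against Ler, from 0.099 to 0.22 in ag-10 fhy3-68 against Ler and from 0.071 to 0.29 where the double mutant was set against ag-10. It took both signs in ag-10 against Ler (-0.090 to 0.092), the double mutant against fhy3-68 (-0.13 to 0.0074) and the interaction (-0.15 to 0.021). Counts of called members were less stable. In the mean effect of fhy3-68, 11 members were called, 17 with genes of a mean value of at least 10 only, 17 with edgeR, 20 with DESeq2, and between 2 and 16 without 1 library. The share of all genes called was 17.9%, 19.8%, 17.6% and 17.1% in the first 4 of these, and it moved with the members' count when a library was left out, from 4.68% without a Ler library (members 4.35%) to 32.1% without fhy3-68 replicate 1 (members 34.8%). In fhy3-68 against Ler, 2 were called, 1 with library totals, 1 in the fit on the 2 genotypes compared, 13 with DESeq2, and between 0 and 8 without 1 library (0 without either Ler library or fhy3-68 replicate 2, 8 without fhy3-68 replicate 1, 1 without either library of the double mutant). All genes were called at 3.05%, at 7.47% with DESeq2 (members 28.3%) and at 17.1% without fhy3-68 replicate 1 (members 17.4%). In the double mutant against Ler, 1 was called, 2 with library totals, with a pseudocount of 0.1, with a mean value of at least 10 and with edgeR, 8 in the fit on the 2 genotypes, 11 with DESeq2, and between 0 and 6 without 1 library (0 without any 1 library of Ler or the double mutant). All genes were called at 4.33%, at 14.7% in the fit on the 2 genotypes (members 17.4%), at 8.00% with DESeq2 (members 23.9%) and at 14.1% without either fhy3-68 library, where 6 members were called. Compared with ag-10, the double mutant had 0 called, 1 in the fit on the 2 genotypes, 9 with DESeq2, and between 0 and 4 without 1 library (4 without either fhy3-68 library, 0 without each of the others). All genes were called at 1.5%, at 5.37% with DESeq2 (members 19.6%) and at 9.17% and 9.12% without fhy3-68 replicate 1 or 2 (members 8.70%). In ag-10 against Ler, the double mutant against fhy3-68 and the interaction, 0 members were called under every alternative. In the mean effect the counts were 2 without either Ler library, 7 and 5 without ag-10 replicates 1 and 2, and 5 without ag-10 fhy3-68 replicate 1. RBCS1B, not called, changed sign in the mean effect without ag-10 replicate 1 (0.0032, with -0.51 as the lowest value, without ag-10 replicate 2). The cause of these differences was not tested. A genotype left with 1 library takes its spread from the other 3 genotypes in such a fit.

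With the replicate number as a block, 20 members were called in the mean effect, 6 in fhy3-68 against Ler, 6 in the double mutant against Ler and 2 when it was set against ag-10, beside 24.8%, 9.31%, 9.87% and 4.67% of all genes. The deviations of same-numbered libraries from their genotype means correlated by -0.025 to 0.51 over the 6 pairs of genotypes, with 4 of them above 0.1 and 2, both with Ler, below it. The labels do not say that a number marks a shared batch, so whether the numbers pair the libraries is not settled by these values, and the fit without the block was kept.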
